A study of Mus musculus with 8 samples.

Results

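Mitochondrial transcription and RNA stability factors are described here through 10 nuclear genes chosen by name, namely Polrmt, Tfam, Tfb2m, Twnk, Mtpap, Lrpprc, Slirp, Nrf1, Ppargc1a and Ppargc1b. All 10 were among the 18770 genes of the deposited table, and all 10 were among the 15964 genes that were tested. The mRNA came from dorsal skin of wild-type C57BL/6 mice (C57BL/6J in the paper) aged 7 to 8 weeks, sampled at D4 after depilation. By the methods, the interfollicular epidermis was taken off to leave dermis with its hair follicles, though markers of suprabasal keratinocytes were present in all 8 libraries. Mice of the AP group were given alpinetin, a plant flavonoid, on the skin (3 mg/ml, 20 µl, dissolved in 65% ethanol), and mice of the vehicle control (VC) group were given 65% ethanol alone. Each group had 4 libraries, and lists of values run from replicate 1 to replicate 4, named VC.1, VC.2 and so on. A figure legend of the paper gives 4 mice to each group, as many as there are libraries, but the table does not name the mouse behind a column.

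The mitochondrial genome is transcribed by its own RNA polymerase, Polrmt, which starts at promoters bound and bent by Tfam and melted with the help of Tfb2m. The long transcripts are cut into single RNAs, given poly(A) tails by Mtpap and kept from decay by the complex of Lrpprc and Slirp, while Twnk unwinds the DNA for replication. All of these are nuclear genes, and Nrf1 with the coactivators Ppargc1a and Ppargc1b is known for driving them and the building of mitochondria, above all in muscle, brown fat and other tissues of high energy use.

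Coordinates are those of GRCm38 (mm10). Values are normalized counts, that is, reads divided by 1 size factor per library. The libraries held 6454563 to 7264151 reads in VC and 8507783 to 11190113 in AP. The 13 mitochondrially encoded mRNAs took 54.3, 44.9, 42.1 and 52.3% of the reads in VC and 11.1, 7.85, 5.32 and 10.3% in AP. This left 3080758 to 3762217 reads for all other genes in VC and 7561598 to 10594787 in AP. The summed mitochondrially encoded RNA was 10.4 times as high in VC as in AP, with 12 of the 13 genes tested, 12 below 0, 10 called lower in AP by limma and a median log2 difference of -3.38. The sum and the shares rest on the abundant genes. In VC, mt-Nd4l, mt-Atp6, mt-Co3, mt-Nd3 and mt-Co2 had means of only 101, 965, 1117, 1457 and 1547 normalized counts. The most abundant of the 12, mt-Co1, had 2250980 ± 626398 normalized counts in VC and 222086 ± 73670 in AP (SD). It differed by -3.37 (SE 1.603, adjusted p = 0.180) and did not pass in limma, and neither did mt-Cytb (adjusted p = 0.0578). The SE in limma is moderated with an intensity trend, so it does not measure the spread between the libraries alone. When each of the 8 libraries was left out in turn, limma called mt-Nd1 in 5 fits, with an adjusted p of up to 0.117. It called mt-Nd2, mt-Nd4 and mt-Nd5 in 6 fits each, with an adjusted p of up to 0.0761. In all 12 the VC libraries lay above the AP libraries, and edgeR, DESeq2 and limma-voom called all 12, mt-Co1 with an adjusted p of 0.00607 in edgeR. The size depends on the scaling, since their mean share of all reads was 48.4% in VC and 8.66% in AP, and scaling to total reads gave mt-Co1 a log2 difference of -2.50. Markers of other cell types differed beside it. Of the skeletal muscle markers 15 of 15 tested were below 0, with a median log2 difference of -1.74 and 1 called. The groups overlapped in all 15, and their summed level was higher in AP.1 than in every VC library. Of the suprabasal keratinocyte markers 10 of 10 were called higher in AP, with a median of 3.37. The summed levels of both lists are given with the coactivators below, and their part in the mitochondrial difference was not tested. In bulk samples, fewer cells of a type and less RNA per cell cannot be told apart.

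None of the 10 nuclear factors passed the test beside this difference. In limma, with p-values adjusted over all genes, 0 of the 10 had an adjusted p under 0.05, against 10.3% of all genes (1011 higher and 639 lower in AP). Without AP.3 the members' count stayed at 0, while that of all genes was 209 higher and 94 lower. At an unadjusted p under 0.05 the count was 1, Ppargc1b, against 30.3% of all genes. The same gene was the only member called by DESeq2 on the recovered reads, which called 19.1% of all genes, and edgeR and limma-voom called 0 members beside 10.7% and 9.01% of all genes. By an unadjusted p under 0.01 with a fold change over 1.5, 0 members passed, against 13.6% of all genes. The groups did not overlap in 1 of the 10 members, again Ppargc1b, against 19.2% of all genes. The median log2 difference of the members was 0.094, with 6 above 0 and 4 below, and that of all genes was 0.058. The sign of the members' median turned without VC.4 (-0.031) and with a trend of the differences over exonic length removed (-0.079). For the 8 members other than Ppargc1a and Ppargc1b, the differences lay between -0.43 and 0.41, and their 95% intervals together ran from -0.87 to 0.96. No interval of these 8 genes reached the median of the mitochondrially encoded mRNAs under the same scaling.

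These directions hold for the deposited scaling and depend on it. When the values were scaled to each library's total reads, which include the mitochondrial reads, the median of all genes moved to 0.90 and 54.2% of all genes were called higher in AP. Of the members, 8 were then called higher in AP, all except Slirp and Ppargc1a, and the differences of Tfam, Slirp, Twnk and Ppargc1a changed sign. Relative to the median of all genes, Tfam lay at -0.26 under total-count scaling and at -0.28 under the deposited scaling. Slirp lay at -0.46 and -0.48 in the same comparison.

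**Figure D1:**
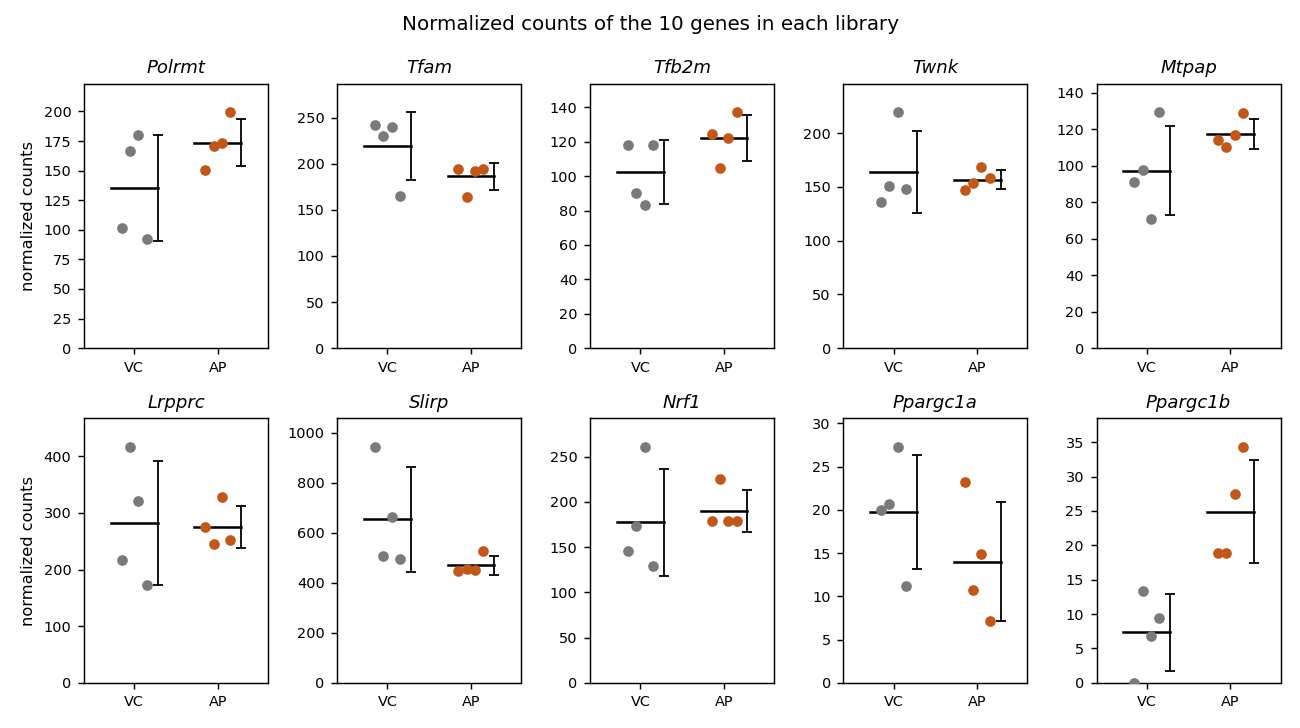
Normalized counts of the 10 genes (vertical axes, each from 0) in the 4 VC and 4 AP libraries; points are libraries, horizontal lines are means and error bars are 1 SD. The groups overlap in each gene but Ppargc1b, where the AP libraries lie from 18.9 to 34.3 and the VC libraries from 0 to 13.3.

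Of the transcription machinery, Tfam (ENSMUSG00000003923, chr10:71225464-71238280, minus strand), the factor that coats and bends mitochondrial DNA, had 242, 231, 240.3 and 165 normalized counts in VC and 194, 164, 192 and 195 in AP. VC.1 to VC.3 were higher than every AP library, while VC.4 lay at the level of the lowest AP library. The log2 difference was -0.22 (SE 0.19, adjusted p = 0.444), with a 95% interval of -0.63 to 0.18. Polrmt, the polymerase itself (ENSMUSG00000020329, chr10:79736123-79746581, minus strand), had 102, 167, 180.2 and 91.9 in VC and 151, 170.4, 173 and 199.6 in AP. VC.1 and VC.4 were low, VC.2 and VC.3 lay among the AP libraries, and the groups overlapped. Its log2 difference was 0.41 (SE 0.25, adjusted p = 0.291), with an interval of -0.14 to 0.96. Tfb2m, which helps the polymerase open the promoter (ENSMUSG00000026492, chr1:179528055-179546267, minus strand), ranged from 83.3 to 118 in VC and from 105 to 137 in AP. In AP, 3 libraries lay above every VC library, and the log2 difference was 0.26 (SE 0.22, adjusted p = 0.443). Of its 50-base stretches, 31.9% also occur in the annotated gene Gm1818, so its reads could be split between both loci in a way the table does not show.

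Tfb1m and Tefm, the partners nearest to these genes by role, were looked at after their values had been seen. Tfb1m, a relative of Tfb2m that methylates mitochondrial ribosomal RNA, had 65.5, 56.2, 60.1 and 65.6 in VC and 39.2, 30.2, 34.9 and 39.3 in AP. All VC libraries were above all AP libraries, and the log2 difference was -0.77 (SE 0.27, adjusted p = 0.0862) in limma, with an adjusted p of 0.0218 in DESeq2 (0.0218 to 0.831 over the alternatives). Under total-count scaling its difference turned positive. Tefm, the elongation factor of the polymerase, differed by 0.29 (SE 0.37, adjusted p = 0.626). Across the list of 21 other genes of mitochondrial transcription and DNA maintenance, 21 were tested, 1 was lower in AP, 0 were higher and the median was 0.00069 beside 0.058 over all genes.

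The gene of that list that fell was Ssbp1, the single-stranded DNA binding protein that works with the Twnk helicase at the replication fork. It had 260.1, 228, 265 and 218 in VC and 129, 91.1, 126 and 149 in AP, so the groups were far apart. The log2 difference was -0.98 (SE 0.20, adjusted p = 0.0172), and without AP.3 the adjusted p was 0.0554 (1.99e-04 to 0.692 over the alternatives). Under total-count scaling it was -0.12, where the median of all genes was 0.90. Twnk (ENSMUSG00000025209, chr19:45005663-45012762, plus strand) ranged from 136 to 219.8 in VC and from 147 to 168 in AP. All 4 AP libraries lay inside the VC range, and the difference of -0.038 (SE 0.20, adjusted p = 0.917) had an interval of -0.48 to 0.40. Of the DNA polymerase subunits at the same fork, also named after their values were seen, Polg differed by 0.069 (SE 0.15, adjusted p = 0.795) and Polg2 by -0.80 (SE 0.34, adjusted p = 0.141).

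Among the RNA stability factors, Slirp (ENSMUSG00000021040, chr12:87443896-87452206, plus strand), the small RNA-binding partner of Lrpprc, had 944, 507, 665 and 497 normalized counts in VC and 447, 456, 452 and 526 in AP. VC.1 stood highest and 3 AP libraries lay below the lowest VC library, but AP.4 was above VC.2 and VC.4. The log2 difference was -0.43 (SE 0.20, adjusted p = 0.184), with an interval of -0.87 to 0.022, and an exact two-sided permutation test over the libraries gave p = 0.0857. Without VC.1 the log2 difference was -0.23. On the opposite strand, the exons of Snw1, a splicing and transcription cofactor, cover 93.9% of the exonic length of Slirp. The strand setting of the counting was not given in the sources used here, so reads of both genes cannot be told apart and the level of Slirp is uncertain. Snw1 had 709, 545, 537 and 514 in VC and 467, 492, 514 and 549 in AP. VC.1 was the highest library for Snw1 as well, and its groups overlapped.

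Lrpprc (ENSMUSG00000024120, chr17:84705247-84790789, minus strand), which holds mitochondrial mRNAs in the complex with Slirp, had 216, 417, 321 and 173 in VC and 276, 246, 327 and 252 in AP. The VC libraries spread widely, with VC.2 high and VC.4 low, and all 4 AP libraries lay inside their range. The log2 difference of 0.041 (SE 0.26, adjusted p = 0.932) had an interval of -0.52 to 0.61, and its sign changed under several alternatives. Mtpap, the poly(A) polymerase of mitochondria (ENSMUSG00000024234, chr18:4375592-4397330, plus strand), ranged from 71.00 to 129 in VC and from 110.0 to 129 in AP. Its AP libraries also lay inside the VC range, and the difference was 0.30 (SE 0.23, adjusted p = 0.413). An antisense gene, Gm26865, covers 18.5% of the exonic length of Mtpap, and Mrpl43 covers 12.6% of that of Twnk from the opposite strand, so the same limit touches both.

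Of 36 other genes of mitochondrial RNA processing and decay, 35 were tested, 1 was lower in AP and 0 were higher, with a median of -0.11 beside 0.058 over all genes. The lower gene was Trit1, which modifies cytosolic and mitochondrial tRNAs, with 209, 198, 113 and 114 in VC and 81.2, 60.9, 89.2 and 87.3 in AP. The groups did not overlap, and the log2 difference was -0.94 (SE 0.27, adjusted p = 0.0496). The call was lost when VC.1, VC.2 or any of the 4 AP libraries was left out, with an adjusted p of up to 0.124 (0.00677 to 0.823 over the alternatives, the highest under total-count scaling). It was also lost with the trend over exonic length removed, at -0.70 (adjusted p = 0.114), and by a small margin with a pseudocount of 0.5 (0.0508), no filter (0.0554) or totals without mitochondrial genes (0.0539). Named after their values were seen, Pnpt1 and Supv3l1, the nuclease and helicase that degrade mitochondrial RNA, differed by -0.34 (SE 0.24, adjusted p = 0.368) and 0.022 (SE 0.25, adjusted p = 0.964). Grsf1, an RNA-binding protein of the mitochondrial RNA granules, had 433 to 507 in VC and 363 to 429 in AP, groups that did not overlap but differed by -0.21 (SE 0.14, adjusted p = 0.330).

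Nrf1 (ENSMUSG00000058440, chr6:30047988-30153458, plus strand), the transcription factor known to act on many nuclear genes of the respiratory chain, had 146, 173, 261 and 129 in VC and 178, 225, 179 and 179 in AP. VC.3 was the highest of all 8 libraries, and all 4 AP libraries lay inside the VC range. The log2 difference was 0.15 (SE 0.23, adjusted p = 0.702), with an interval of -0.36 to 0.66. It was 0.015 without VC.4 and 0.35 without VC.3. Factors that share this role were named after their values were seen. Gabpa differed by -0.15 (SE 0.15, adjusted p = 0.531), Esrra by 0.046 (SE 0.18, adjusted p = 0.888) and Yy1 by 0.37 (SE 0.15, adjusted p = 0.125). For Yy1 the AP libraries (655 to 793) lay above the VC libraries (488 to 643). With the trend over exonic length removed, its log2 difference was 0.21 (adjusted p = 0.323).

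The coactivators were the members with the lowest counts and with differences of opposite sign under the deposited scaling. Ppargc1b (ENSMUSG00000033871, chr18:61298136-61400431, minus strand) had 0, 13.3, 6.83 and 9.38 normalized counts in VC, from 0, 9, 5 and 5 reads, and 18.9, 18.9, 27.4 and 34.3 in AP, from 26, 35, 55 and 48 reads. Every AP library was above every VC library, and VC.1 held no read, where a floor of 3 reads would be 5.46 normalized counts. The means were 7.38 ± 5.59 in VC and 24.9 ± 7.49 in AP (SD, n = 4), a ratio of 3.37. The log2 difference was 2.10 (SE 0.78, adjusted p = 0.0973) in limma, with an interval of 0.40 to 3.80. The exact two-sided permutation test gave p = 0.0286, the smallest value that 4 against 4 libraries allow.

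The size of this difference and its call depend on the processing. Without VC.1 the log2 difference was 1.25, with an adjusted p of 0.0998, and a pseudocount of 5 in place of 1 gave 1.39. DESeq2 gave 1.73 with an adjusted p of 0.0301, and the 19 alternatives that gave a value spanned adjusted p-values of 0.00815 to 0.218. Markers of suprabasal keratinocytes, cells of the epidermis between the follicles that the methods describe as removed, moved with this gene. All 10 were higher in AP, with a median log2 difference of 3.37, none of them was at 0 and Krt10 was the most abundant (2376 ± 1207 in VC and 38536 ± 27358 in AP). The groups overlapped in Lor and Flg2, where AP.2 (416 and 21.6) lay inside the VC range. The summed level of the 10 was 4206, 9953, 6624 and 4251 in VC and 39999, 38236, 114403 and 161796 in AP. AP.3 and AP.4 were the highest AP libraries for the suprabasal markers and for Ppargc1b alike. They were also the highest AP libraries for markers of basal and follicle keratinocytes. The summed level of those was 33989, 85131, 56274 and 27042 in VC and 55032, 55896, 104080 and 144578 in AP. The part of either kind of keratinocyte in the result was not tested.

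Ppargc1a (ENSMUSG00000029167, chr5:51454250-51567726, minus strand) had 20.01, 20.7, 27.3 and 11.3 in VC and 23.2, 10.8, 14.9 and 7.15 in AP. AP.1 lay among the higher VC libraries, AP.2 and AP.4 lay below every VC library, and the groups overlapped. The log2 difference was -0.52 (SE 0.49, adjusted p = 0.501), and its interval of -1.60 to 0.56 takes in falls as well as rises. It was -0.27 without AP.4 and -0.79 without AP.1. Of 16 skeletal muscle markers, 15 were listed and tested, 15 were below 0 with a median of -1.74, and 1, Tnnc2, was called. Myh7, a marker of slow muscle fibres, was not found by name in the deposited table. None of the 15 was at 0 in a library, and the most abundant was Acta1 (18846 ± 6030.1 in VC and 7604 ± 8922 in AP). The summed level of these markers was 64235, 92947, 50119 and 49409 in VC and 95484, 12387, 7254 and 15117 in AP. Acta1 had an adjusted p of 0.0628 in limma. When each of the 8 libraries was left out in turn, it was called in 1 fit, with an adjusted p of 0.00279. AP.1, the highest AP library for Ppargc1a, was also the highest for muscle, but the other libraries did not follow 1 order. In VC, Ppargc1a was highest in VC.3 and muscle in VC.2. AP.4, the lowest library for Ppargc1a, was above AP.2 and AP.3 for muscle. The part of muscle in the result was not tested. Of 6 brown adipocyte markers, 5 were listed and tested, all 5 were below 0 with a median of -0.73, and 0 were called. Ucp1, which defines these cells, was not found by name in the deposited table. Elovl3 was the most abundant of the 5, and their summed level was 1104, 4194, 1621 and 1365 in VC and 1393, 1164, 639 and 1129 in AP.

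Pprc1, the remaining member of the coactivator family, and Nrip1, a corepressor of the same nuclear receptors, were named after their values were seen. Pprc1 differed by 0.16 (SE 0.25, adjusted p = 0.708). Nrip1 had 97.5 to 249 in VC and 211 to 290.1 in AP, a difference of 0.89 (SE 0.27, adjusted p = 0.0578) in limma that passed in DESeq2 (adjusted p = 0.0430, and 7.37e-04 to 0.229 over the alternatives). Without VC.1, its highest VC library, the log2 difference was 1.18 and the adjusted p in limma was 0.0191. With the trend over exonic length removed, the log2 difference was 0.57 and the adjusted p 0.229.

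**Figure D2:**
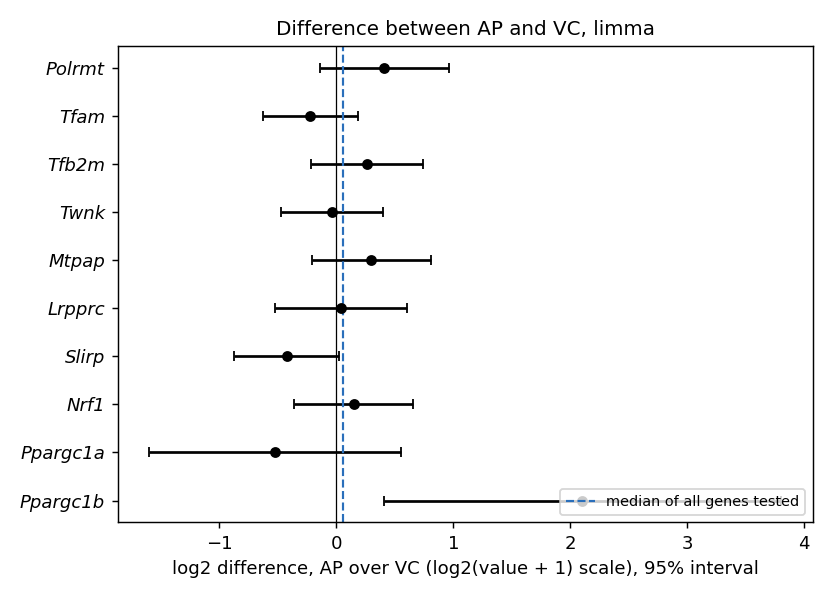
Log2 difference between AP and VC for each of the 10 genes (horizontal axis, log2(value + 1) scale); points are limma estimates, bars are 95% intervals and the dashed line is the median of the 15964 genes tested. The interval of Ppargc1b, from 0.40 to 3.80, is the widest and does not hold 0, while the other 9 intervals hold 0.

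The wider list of 34 biogenesis regulators had 33 genes tested, of which 2 were higher in AP, 0 were lower and 24 lay above 0, with a median of 0.25. Of all genes, 53.5% lay above 0, with a median of 0.058. Mef2a, a transcription factor known to act with Ppargc1a in muscle, had 357, 284, 352 and 358 in VC and 475, 516, 629 and 640.1 in AP. Ncor1, a corepressor of nuclear receptors, had 602, 689, 634 and 615 in VC and 775, 1095, 893 and 945 in AP. In both genes every AP library was above every VC library. The log2 differences were 0.74 (SE 0.16, adjusted p = 0.0215) for Mef2a and 0.54 (SE 0.15, adjusted p = 0.0419) for Ncor1. Both are long genes, and differences rose with exonic length across genes with a mean of at least 50 normalized counts, from a median of -0.33 at 1000 to 2000 bases to 0.34 above 8000 bases. With that trend removed, Mef2a lay at 0.35 (adjusted p = 0.189) and Ncor1 at 0.18 (adjusted p = 0.407). Ncor1 also missed the threshold in edgeR (0.0506) and limma-voom (0.0509). When each library was dropped in turn, Ncor1 was called in 1 of 8 fits, that without AP.1, with an adjusted p of up to 0.116 in the rest. Mef2a was called in 6 and lost its call without AP.3 or AP.4, where the adjusted p reached 0.0813.

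Of 20 genes that stand for mitochondrial mass, 20 were tested, 1 was lower in AP and 0 were higher, with a median of -0.025 beside 0.058 over all genes. The lower gene was Vdac3, a channel of the outer membrane, with 957, 604, 731 and 773 in VC and 620.1, 488, 389 and 455 in AP. AP.1 lay just above VC.2, so the groups overlapped, and the log2 difference was -0.65 (SE 0.19, adjusted p = 0.0496). When each library was dropped in turn, it was called in 2 of 8 fits, those without VC.2 or AP.1, with an adjusted p of up to 0.150 in the rest. The call was also lost with a pseudocount of 0.5 (0.0512), no filter (0.0527) or totals without mitochondrial genes (0.0538), and under total-count scaling its difference was 0.22. Cs, the citrate synthase often used as a measure of mitochondrial content, was named after its values were seen and differed by 0.12 (SE 0.17, adjusted p = 0.668). Over the 4 lists, 5 of 109 genes tested were called, which is 4.59% beside the 10.3% of all genes. These shares rest on few libraries: without AP.3, 0 genes of the lists were called, and without AP.4 it was 1, beside 254 higher and 139 lower of all genes. DESeq2 called 8 higher and 8 lower over the lists, beside 19.1% of all genes.

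**Figure D3:**
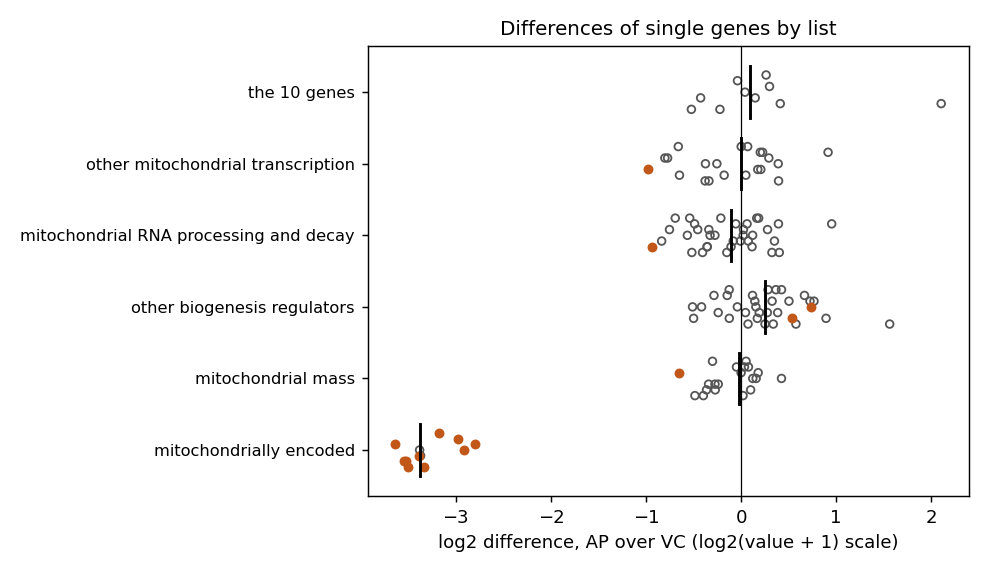
Log2 differences between AP and VC (horizontal axis) of the single genes of each list; filled points have an adjusted p under 0.05 in limma, open points do not, and vertical bars are list medians. The nuclear lists centre between -0.11 and 0.25, and the mitochondrially encoded genes at -3.38.

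Levels were compared between the members as normalized counts per kilobase of exon. Slirp was the highest at 181 over the 8 libraries, and its lowest library (144) lay above the highest library of any other member, though its reads cannot be told apart from those of Snw1. Tfam (45.7), Tfb2m (40.1), Twnk (39.9), Polrmt (32.95) and Lrpprc (32.7) followed, and each overlapped its neighbour in this order. Nrf1 (17.9) and Mtpap (17.3) came next and also overlapped. This order is of the means over both groups. In VC it ran Tfam (49.4), Twnk (40.8), Tfb2m (36.5), Lrpprc (33.1) and Polrmt (28.9). In AP it ran Tfb2m (43.6), Tfam (41.9), Twnk (39.1), Polrmt (37.04) and Lrpprc (32.4), with Mtpap (18.9) just above Nrf1 (18.5). Ppargc1b (4.04) and Ppargc1a (2.57) were the lowest, below every library of Mtpap. In VC the level of Ppargc1a (3.01) was above that of Ppargc1b (1.85), and in AP it was below (2.13 and 6.23). The order in between also depends on the length used. With the longest transcript, Lrpprc came after Slirp at 63.4, Nrf1 stood at 45.4, above Polrmt (36.01), and Mtpap at 29.7. With the median transcript, a choice made after seeing the data, Lrpprc (288) again came after Slirp (965) and Twnk (56.4) was 7th, below Nrf1 (112). There Ppargc1a (6.14) lay above Ppargc1b (4.84) over both groups and in VC (7.19 and 2.21), but below it in AP (5.09 and 7.47). Both coactivators stayed the lowest with each length. The spread between libraries was wider in VC than in AP for 9 of the 10 members, with a coefficient of variation for Slirp of 31.9% against 7.99%, and Ppargc1a was the exception. The spread was also wider in VC for 71.5% of all genes with reads in both groups. The VC libraries had fewer reads outside the mitochondrial genes, and Slirp had 265 to 519 reads in VC and 616 to 907 in AP. The part of counting error in the spread was not tested.

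The genes most like the members with the highest and the lowest log2 difference between AP and VC were sought. The measure was the root mean square difference of their centred log2 values over the 8 libraries. Closest to Ppargc1b, among 11257 genes with a mean of at least 50 normalized counts, were Vav3 (0.42), Garem1 (0.43) and Tmem154 (0.46). Closest to Ppargc1a were Gm9747 (0.20), Sema6c (0.20) and Cacna1g (0.28). This measure takes in the difference between the groups, which the choice therefore fixes, so these 6 genes are given with no test.

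Promoters of 8 members, 250 bases before to 50 after a start, were found in RefSeq (GRCm38.p6), with 10 promoters in all since Nrf1 and Twnk have several. Those of Mtpap and Ppargc1b were not used here. Motifs were searched on both strands. The motif of NRF1 (GCGCANGCG) was in the promoters of Polrmt and Tfb2m and in 6.25% of all 32851 promoters. That of GABPA (CCGGAAG) was in Polrmt, Slirp, Tfam and Twnk, beside 8.86% of all, and that of YY1 (AAGATGGC) was in Slirp, beside 2.75%. The motifs of CREB (TGACGTCA, 1.79% of all) and ERRA (TCAAGGTCA, 0.423%) were in none of the 10. The promoters of Polrmt and Tfb2m are shown because they carry the motif of a factor that is itself a member, with motif matches in capitals. Polrmt lies at chr10:79746532-79746831 and Tfb2m at chr1:179546227-179546526, both on the minus strand and written 5′ to 3′.
Polrmt: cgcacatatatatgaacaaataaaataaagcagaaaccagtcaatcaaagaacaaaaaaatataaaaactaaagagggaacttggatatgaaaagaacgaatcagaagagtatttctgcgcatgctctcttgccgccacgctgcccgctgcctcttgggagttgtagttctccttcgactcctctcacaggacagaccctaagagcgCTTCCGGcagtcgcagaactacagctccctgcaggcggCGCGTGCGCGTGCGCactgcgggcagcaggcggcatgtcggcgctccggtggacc
Tfb2m: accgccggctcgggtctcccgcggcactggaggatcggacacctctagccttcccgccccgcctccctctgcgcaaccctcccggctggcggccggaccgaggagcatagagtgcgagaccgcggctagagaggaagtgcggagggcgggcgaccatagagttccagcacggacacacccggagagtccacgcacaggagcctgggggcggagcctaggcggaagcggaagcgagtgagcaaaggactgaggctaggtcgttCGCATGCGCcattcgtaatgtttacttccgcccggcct
In Polrmt the capitals mark a match to GABPA followed by a pair of overlapping matches to NRF1, and in Tfb2m a single match to NRF1. A match is a description of these letters and not a site of binding.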

How the data were processed

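Normalized counts of 8 libraries were used. According to the paper's methods, the authors aligned reads to mm10 with STAR, counted them with featureCounts and ran DESeq2, while the submitters' processing notes name HTSeq as the counter. The signal values as deposited are read counts divided by 1 size factor per library. Of 150160 values, 150160 were whole reads within 0.001 read, so reads could be recovered. The authors' own comparison columns (mean, fold change, Wald statistic, p-values) were not used. Replicates of a group differed by a chi-square per degree of freedom of 15.8 to 78.9.

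Genes reaching 3 normalized counts in 4 or more libraries were tested in R 4.3.3 with limma 3.58.1 (empirical Bayes with an intensity trend) on log2(value + 1), a scale that tends to understate changes of low genes, though for Ppargc1b, with a library at 0, it gave more (2.10) than edgeR (1.71) or DESeq2 (1.73). P-values were Benjamini-Hochberg adjusted over all genes tested. The test planned for counts, edgeR 4.0.16, and DESeq2 1.42.0 and limma-voom were run on recovered reads as alternatives. Single genes used an exact two-sided permutation test over 70 assignments (smallest p 0.0286). Other alternatives were pseudocounts, filters, scalings, removal of the length trend and each library left out. Steps were tested on simulated data. Coordinates and lengths came from GENCODE M21 (GRCm38). Floors of 3 reads cover counting error only.

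Named were all members, every gene of the 4 pathway lists with an adjusted p under 0.05, the most abundant marker of each cell type and defining markers at 0. Also named were the 3 genes most like the members with the highest and the lowest log2 difference. A further 13 partners were chosen by role after their values were seen. Members and lists were chosen with earlier results of these data known. The protein comparison of Ppargc1a and Ppargc1b that had been planned was not analysed here.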

Additional observations from a re-analysis of the deposited data

Results flagged for a closer look

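In 11 of 74 groups of 4 libraries, 1 library stood apart from the rest, with a gap to its neighbour that exceeded Dixon's 95% critical share of the group's range. Chance alone gives about 1 such group in 20. Among the members, Tfam was low in VC.4 (165 normalized counts) and in AP.2 (164). Slirp was high in AP.4 (526) and Nrf1 in AP.2 (225). Of the other named genes, Mef2a was low in VC.2 (284), Pnpt1 was low in VC.4 (93.8), Pprc1 was high in VC.3 (445) and Nrip1 was high in VC.1 (249). The summed skeletal muscle markers were high in AP.1 (95484), the brown adipocyte markers in VC.2 (4194) and the leukocyte markers in AP.1 (13973).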

How the results depend on the processing

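Under total-count scaling, 8 members were called higher, their median was 0.96, all genes counted 8657 higher and 70 lower and the pathway genes 72 higher and 0 lower, where the deposited scaling gave 2 and 3. There the log2 difference turned positive for Tfam 0.64, Slirp 0.44, Twnk 0.83, Ppargc1a 0.29, Vdac3 0.22, Tfb1m 0.079, Polg2 0.046, Pnpt1 0.52, Grsf1 0.66 and Gabpa 0.72. DESeq2 called 1 member higher, 1677 higher and 1362 lower of all genes and 8 and 8 pathway genes higher and lower. Pathway counts, higher and lower, were 0 and 2 with the length trend removed, 5 and 4 at an unadjusted p under 0.01 with a fold over 1.5, 2 and 1 with no filter, 2 and 1 with a pseudocount of 0.5, 3 and 1 with totals without mitochondrial genes, 2 and 5 with upper-quartile scaling, 3 and 5 with the stricter filter, 3 and 4 with a pseudocount of 5, and 2 and 4 with TMM scaling and with edgeR. Split into higher and lower, all genes counted 919 higher and 842 lower under upper-quartile scaling and 715 higher and 723 lower in limma-voom.

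Leaving out each library in turn, all genes higher ranged over 209 to 1082 and lower over 94 to 817, with 209 higher and 94 lower without AP.3, 254 higher and 139 lower without AP.4, 398 higher and 155 lower without AP.2 and 585 higher and 261 lower without VC.1. Pathway genes ranged over 0 to 6 higher and 0 to 3 lower. The members' count was 0 in each of these 8 fits. Log2 differences that changed sign ran over Lrpprc -0.17 to 0.26, Twnk -0.12 to 0.11, Tefm -0.023 to 0.49, Supv3l1 -0.19 to 0.14 and Esrra -0.050 to 0.17.

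Lrpprc was -0.011 under upper-quartile scaling, -0.044 in edgeR, -0.036 in DESeq2, -0.00174 in limma-voom and -0.21 without the length trend. Supv3l1 was -0.030, -0.029, -0.026 and -0.012 in the first 4 of these. Esrra was -0.00574 under upper-quartile scaling, Twnk 0.00198 with totals without mitochondrial genes, and without the length trend Nrf1 was -0.15 and Polg -0.24. The cause was not tested.

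The median log2 difference of the members was -0.079 without the length trend and -0.031 to 0.18 when libraries were left out in turn. Calls of members changed under total-count scaling and, for Ppargc1b, in DESeq2. Ppargc1b did not pass the stricter filter. No paired analysis was made because the labels pair no VC sample with an AP sample. A gene with 3 reads stood at 4.10 to 5.63 normalized counts in VC and 1.49 to 2.18 in AP, which limits Ppargc1b in VC.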

Other observations

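The other marker lists gave values beyond the comparisons above. Adipocyte markers had a median log2 difference of 0.36 with 0 of 10 called (Cfd the most abundant, 7864 ± 4923 in VC and 9667 ± 4092 in AP), and fibroblast markers 0.28 with 0 of 8 called (Col1a1, 36683 ± 21309 and 55218 ± 24981). Basal and follicle keratinocyte markers had a median of 0.42 with 0 of 8 called (Krt14, 19974 ± 14052 and 37959.5 ± 20586). Leukocyte markers had a median of -0.18, with 4 above 0 and 6 below, and Cd74 was the most abundant (7374 ± 4301 and 5542 ± 1424). The lowest was Lyz2 at -1.08. Of the 10, 1 was called, S100a9 at 3.11 (SE 0.82), though its groups overlapped (13.1 in AP.1 and 25.1 in VC.2). Of 5 red blood cell markers 1 was called, Hbb-bs, with 186, 168, 330.4 and 169 in VC and 492, 775, 355 and 406 in AP, and the median was 0.94. Of these markers 4 lay above 0 and 1 below, Hba-a2 at -0.81 (adjusted p = 0.0901). When each of the 8 libraries was left out in turn, Hbb-bs was called in 5 fits, with an adjusted p of up to 0.0604.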
